A study of Mus musculus with 8 samples.

Results

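The miR-130 and miR-301 family is a group of mature miRNAs whose 3p arms carry one seed, the stretch of bases 2 to 8 by which a miRNA pairs with its target mRNAs. Members were chosen by name, as the rows for mmu-miR-130a-3p, mmu-miR-130b-3p, mmu-miR-130b-5p and mmu-miR-301a-3p. Of 5 names listed, these 4 were found among the 697 miRNAs counted, and mmu-miR-301b-3p was not analysed here. The counts come from small RNA libraries of cardiomyocytes isolated by Langendorff perfusion from male mice, 2 months old at surgery and 14 weeks after it. The groups are sham-operated mice (Sham, n = 4) and mice with transverse aortic constriction (TAC, n = 4), a narrowing of the aorta that loads the left ventricle with pressure. Each library holds cells of 1 mouse, both groups underwent the same isolation, and the strain is not given in the sources used here.

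Family members silence mRNAs that hold the complement of their seed, and the family is known from blood vessels, where miR-130a favours angiogenesis and where the family as a whole is linked to pulmonary hypertension through repression of PPAR-gamma, a nuclear receptor of lipid metabolism and of the quiescent vessel wall. miR-301a is made from an intron of Ska2, a gene of the mitotic spindle, and miR-130b and miR-301b are made from neighbouring hairpins. A hairpin yields a 5p and a 3p arm, and usually 1 of them is kept in the silencing complex while the other is degraded.

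The mature sequences of RefSeq (GRCm38.p6) are shown because the seed sets which mRNAs a member can pair with, and the seed stands in capitals.
mmu-miR-130a-3p: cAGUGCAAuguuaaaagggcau
mmu-miR-130b-3p: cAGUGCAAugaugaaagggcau
mmu-miR-301a-3p: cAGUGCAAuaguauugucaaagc
The 3p arms share 1 seed. miR-130b-3p is the same as miR-130a-3p at 20 of 22 positions, with the differences U11A and A13G, where positions are counted from 1 at the 5′ end and the base of miR-130a-3p comes first. miR-301a-3p matches miR-130a-3p over the first 9 bases and at 12 positions in all. Of the 7 mature mouse sequences with this seed in the RefSeq table, only these 3 have a row among the counts. Whether a tag that fits more than 1 name was given to 1 or to several is not stated in the sources used here. The counts of miR-465a-3p, miR-465b-3p and miR-465c-3p were the same in every library, as when a shared tag is given to each name. miR-130b-3p was counted 0 times in sham mouse 3 and in TAC mice 1, 2 and 4, so no tag was given to both miR-130a-3p and miR-130b-3p there. How a tag that fits neither exactly was placed is not stated, and their close likeness leaves the split uncertain to that extent.

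The 5p arms have other seeds, and in the next lines the capitals mark the exact complement of the 3p seed, UUGCACU.
mmu-miR-130b-5p: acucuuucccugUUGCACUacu
mmu-miR-301a-5p: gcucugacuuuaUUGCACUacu
mmu-miR-130a-5p: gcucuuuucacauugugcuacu
In miR-130b-5p and miR-301a-5p it starts at base 13, and in miR-130a-5p it is not there in these letters. It was found in 9 of the 1679 mature mouse sequences of the table (0.536%), searched on the miRNA strand alone, and miR-25-3p, miR-92a-3p and miR-92b-3p are among them. This is a description of the letters and not of any pairing in the cells.

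In GRCm38.p6, the hairpin Mir130a lies on the minus strand of chromosome 2 from 84741115 to 84741178, and no other gene of GENCODE vM21 overlaps it. Mir301, the hairpin of miR-301a, lies on the plus strand of chromosome 11 from 87113004 to 87113089, in an intron of Ska2 on the same strand. Mir130b lies on the minus strand of chromosome 16 from 17124061 to 17124142, in an intron of the protein-coding gene 2610318N02Rik, with 257 bases between it and Mir301b. The 3 hairpins lie on separate chromosomes, and both miR-130b arms come from 1 of them.

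The miRNA totals, which are summed counts, ran from 4005668 to 5392576 in sham and from 5507169 to 7798943 in TAC. Tags shared by several names appear to enter these totals more than once. For example, miR-486a-5p had 119333 and miR-486b-5p 118920 counts in sham mouse 1. Such names also stand separately among the miRNAs tested. Levels are given as CPM, the count per 1000000 of the summed miRNA counts of its library. They are also given as reference-scaled CPM, in which the CPM of the TAC libraries were divided by 0.537. That is the TAC-to-sham ratio of miR-126a-3p and miR-19b-3p, to which the study normalizes. This scaling sets the general level of the comparison. The median log2 fold change of all 410 miRNAs tested was 0.59 with it, 0.0015 under TMM, which assumes that most miRNAs do not change, and -0.31 with library totals. Summed CPM of 5 cardiomyocyte marker miRNAs, such as miR-1a-3p and miR-208a-3p, lay between 160700 and 198100 in sham and between 194500 and 245900 in TAC. Marker miRNAs of other cells were present as well. The 2 endothelial ones, miR-126a-3p and miR-126a-5p, summed to between 49250 and 72050 CPM in sham and to between 29270 and 34560 in TAC. By library total these sums did not overlap, and 19.5% of all tested miRNAs had every TAC library below every sham library. After reference scaling the log2 fold changes of these markers were 0.10 and -0.12, and under TMM -0.49 and -0.71. The scaling itself holds miR-126a-3p near 0. The paper reports miR-126a-3p as unaltered, with a check by QPCR. The size of the endothelial difference thus follows the scaling. The family is known from vessels and miR-126a-3p is also a reference, but the part of this difference in the members' values was not tested. In such bulk samples fewer cells of a type and less RNA per cell cannot be told apart.

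miR-130a-3p, the angiogenic member, made up nearly all of the family in these cardiomyocytes. Its counts were 374, 469, 417 and 274 in sham mice 1 to 4 and 347, 552, 410 and 432 in TAC mice 1 to 4. By library total these were 80.8, 87.0, 85.0 and 68.4 CPM in sham and 63.0, 70.8, 64.7 and 59.8 CPM in TAC. The TAC values were the lower ones except that TAC mouse 2 lay above sham mouse 4, so the groups overlapped by this pair alone (two-sided exact permutation test, p = 0.0571, n = 4 each). After reference scaling the TAC libraries had 117, 132, 120 and 111 and lay above every sham library. Means were 80.3 ± 8.33 reference-scaled CPM in sham mice and 120 ± 8.58 in TAC mice (SD, n = 4 each).

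The log2 fold change of miR-130a-3p was 0.58 (standard error, SE, 0.16; adjusted p = 0.0129 from edgeR's quasi-likelihood test with Benjamini-Hochberg adjustment), a fold change of 1.5. This passed the adjusted threshold of 0.05 and stayed under the fold change of 1.7 that was also required to call a miRNA. Among all tested miRNAs, 42.7% passed the same adjusted threshold with a higher level in TAC, 29.8% were called higher at both thresholds, and 39.8% had every TAC library above every sham library after this scaling. The rise of miR-130a-3p was thus that of the middle of all miRNAs. Its log2 fold change was 0.0082 below their median, and 203 of 410 (49.5%) had a lower one. Under TMM it was -0.0064 (SE 0.15, adjusted p = 0.987) and with library totals -0.31 (SE 0.16, adjusted p = 0.210). The adjusted p of the reference-scaled test rose to 0.0539 without sham mouse 3 and to 0.0588 without TAC mouse 2, and was 0.0768 with 1 reference factor per library in place of 1 for the group. An exact permutation test of the reference-scaled values, with the factor computed anew in each of the 70 arrangements, gave p = 0.0429.

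**Figure D1:**
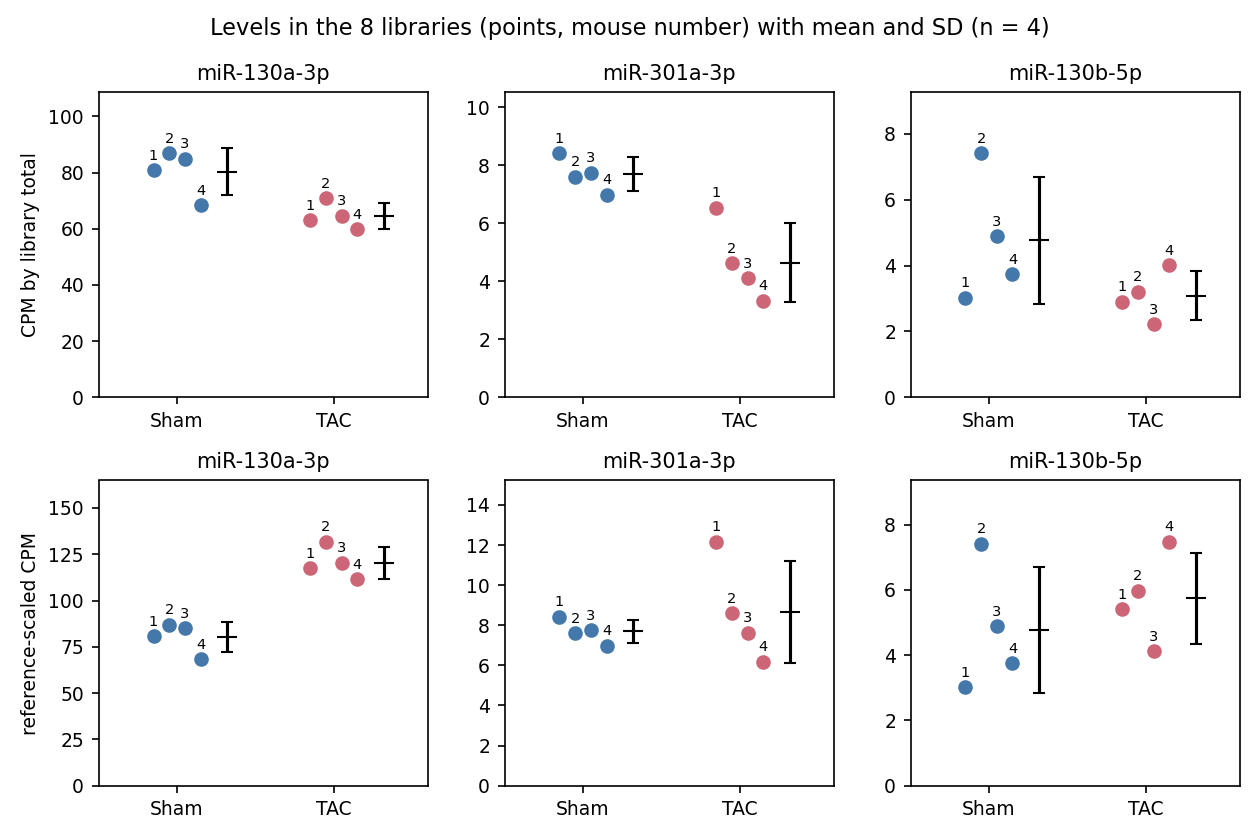
Levels of miR-130a-3p, miR-301a-3p and miR-130b-5p in each library, as CPM by library total (upper row) and as reference-scaled CPM (lower row), on axes that start at 0. Points are mice with their number, and the bars beside them give the mean and SD of 4 libraries. After reference scaling miR-130a-3p is higher in every TAC library, at 111 to 132 against 68.4 to 87.0. By library total it is the lower one in most TAC libraries, with an overlap, and miR-301a-3p is lower in every TAC library.

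miR-301a-3p, the Ska2 intron product, was the next member by level. Its counts were 39, 41, 38 and 28 in sham mice 1 to 4 and 36, 36, 26 and 24 in TAC mice 1 to 4, although the TAC libraries were the deeper ones. By library total it had 8.43, 7.6, 7.74 and 6.99 CPM in sham and 6.54, 4.62, 4.10 and 3.32 CPM in TAC. The highest TAC value was lower than the lowest sham value (exact permutation, two-sided, p = 0.0286, no smaller p being possible with 4 against 4), as was so for 19.5% of all tested miRNAs. In edgeR with library totals the log2 fold change was -0.73 (SE 0.28, adjusted p = 0.107), which did not pass the threshold, while 12.7% of all tested miRNAs passed it with a lower level in TAC. After reference scaling the TAC values were 12.2, 8.60, 7.64 and 6.19, and they spread over both sides of the sham values (exact permutation test, p = 0.729, n = 4 each). The log2 fold change was then 0.16 (SE 0.28, adjusted p = 0.652), and under TMM it was -0.44 (SE 0.26, adjusted p = 0.326). It lay 0.43 below the median of all tested miRNAs with the reference scaling and 0.44 below it under TMM, and 17.8% of the tested miRNAs had a lower log2 fold change. TAC mouse 1 held the highest TAC level, and without its library the reference-scaled log2 fold change was -0.040.

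miR-130b-5p, an arm that does not carry the family seed, was counted 14, 40, 24 and 15 times in sham mice 1 to 4 and 16, 25, 14 and 29 times in TAC mice 1 to 4. By library total this was 3.02, 7.42, 4.89 and 3.74 CPM in sham and 2.91, 3.21, 2.21 and 4.01 CPM in TAC. The groups overlapped (exact permutation test, p = 0.171, n = 4 each), and sham mouse 2 stood highest. The reference-scaled log2 fold change was 0.26 (SE 0.36, adjusted p = 0.566), with -0.32 (adjusted p = 0.629) under TMM and -0.63 (adjusted p = 0.256) with library totals. It lay 0.33 below the median of all tested miRNAs with the reference scaling. At these counts, counting error alone gives a coefficient of variation of 20.7% in sham and 21.8% in TAC, beside measured ones of 40.4% and 24.3%. Counting error is of like size in miR-301a-3p, at 16.6% and 18.1%, beside measured ones of 7.67% in sham and 29.5% in TAC. The sham values of miR-301a-3p thus lay closer together than counting error alone gives on average. Counting error limits the differences that could be detected in both miRNAs.

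miR-130b-3p, the arm with the family seed, was close to the limit of detection. It was counted 3, 1, 0 and 3 times in sham mice 1 to 4 and 0, 0, 4 and 0 times in TAC mice 1 to 4. It did not reach the mean of 10 counts needed for the test. A count of 0 allows up to 3 tags, which is 0.611 CPM in sham mouse 3 and 0.545, 0.385 and 0.415 CPM in TAC mice 1, 2 and 4. All values of miR-130b-3p were thus near this limit, and no fold change is given.

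Of the 3 members tested, 1 passed the adjusted threshold with a higher level in TAC and 0 with a lower one, against 42.7% of all tested miRNAs higher and 0.488% lower. At an unadjusted p below 0.05 the members' counts were the same, against 51.0% of all higher and 0.488% lower. DESeq2 with the same scaling gave 1 and 0 members as well, against 45.1% and 0.488%. Under TMM 0 of the 3 members passed in either direction, against 4.63% of all tested miRNAs higher and 3.17% lower, and at an unadjusted p below 0.05 there were also 0, against 15.1% higher and 11.5% lower. With library totals 0 members passed, against 0.488% higher and 12.7% lower, and at an unadjusted p below 0.05 there was 1 lower (miR-301a-3p) and 0 higher, against 25.9% lower and 3.9% higher. DESeq2 with its own size factors gave 0, against 5.12% higher and 5.37% lower. With 3 members, none of these counts sets the family apart from the other miRNAs.

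**Figure D2:**
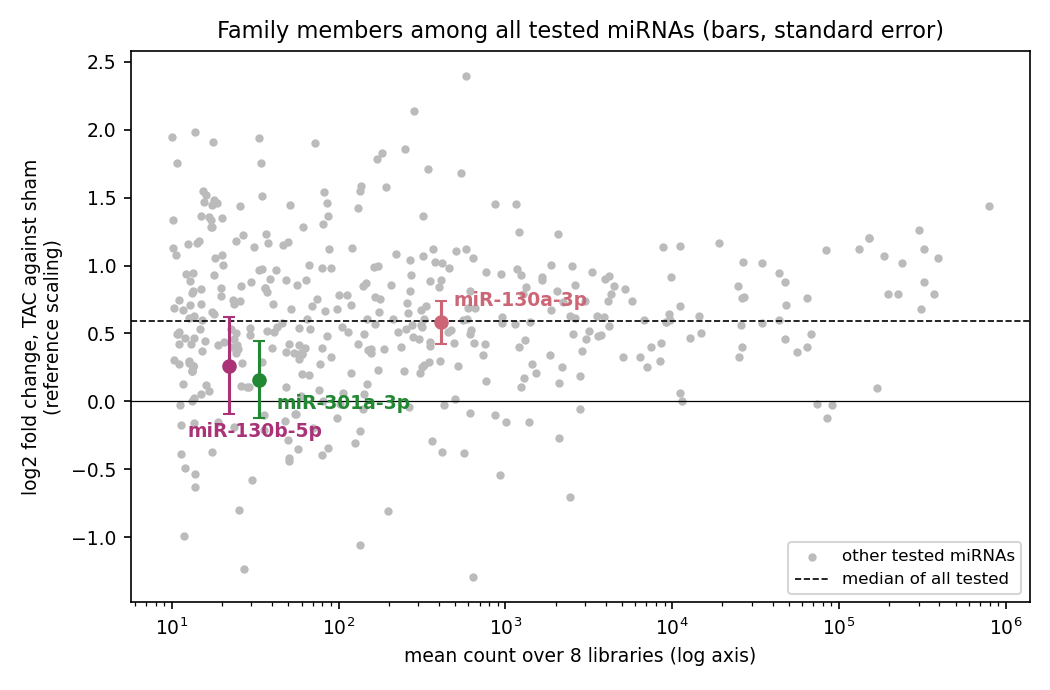
Log2 fold change of TAC against sham with the reference scaling (vertical axis) against the mean count over 8 libraries (horizontal log axis) for the 410 miRNAs tested, with the members in colour and their standard errors as bars. The dashed line is the median of all, 0.59, on which miR-130a-3p lies at 0.58, while miR-301a-3p (0.16) and miR-130b-5p (0.26) lie below it.

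**Figure D3:**
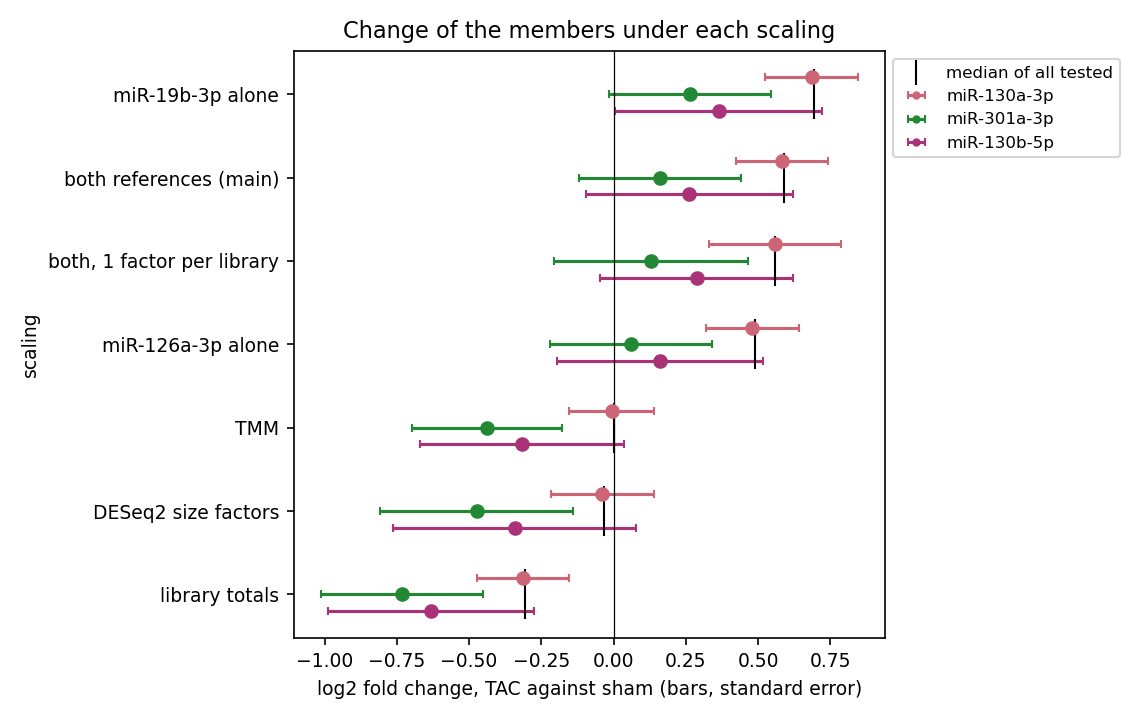
Log2 fold change of TAC against sham (horizontal axis, bars give the standard error) of the 3 tested members under 7 scalings (vertical axis), with the median of all tested miRNAs as a black tick. The members move with the tick from scaling to scaling, and miR-130a-3p stays beside it while miR-301a-3p and miR-130b-5p stay to its left.

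The make-up of the family within a library does not depend on any scaling between libraries. miR-130a-3p took 90.8% ± 1.07 of the tags of the 3 same-seed members in sham mice and 93.1% ± 1.78 in TAC mice (SD, n = 4 each), a difference of 2.31 percent points with p = 0.0857 (exact permutation, two-sided), above the threshold of 0.05. Nearly all of the rest was miR-301a-3p. Its share was 9.38%, 8.02%, 8.35% and 9.18% in sham mice 1 to 4 and 9.40%, 6.12%, 5.91% and 5.26% in TAC mice 1 to 4. In TAC mice 2, 3 and 4 the share was lower than in every sham mouse, and TAC mouse 1 had the highest share of all, so the groups overlapped and the difference of -2.06 percent points was within what rearranging the mice gives (exact permutation, p = 0.143). The 95% Wilson intervals, which cover counting error only since tags are not marked as separate molecules, ran from 3.56% to 7.71% in TAC mouse 4 and from 6.87% to 12.7% in TAC mouse 1, and they overlapped those of the sham libraries. Without TAC mouse 1 the difference in the share of miR-130a-3p was 3.14 percent points (exact permutation, two-sided, p = 0.0286, which is the smallest value 4 against 3 allow and follows once the only overlapping library is removed). Leaving out any other library gave p from 0.0857 to 0.171.

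**Figure D4:**
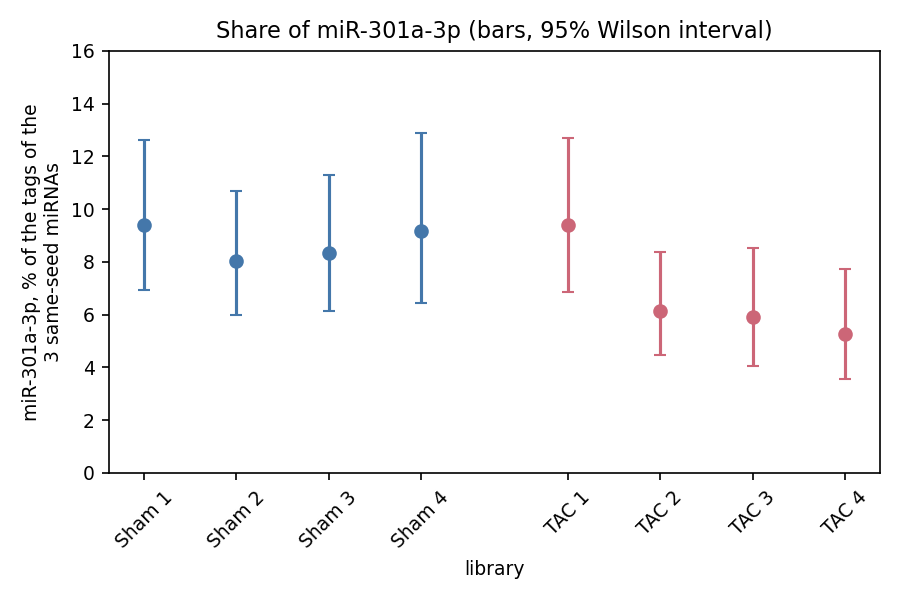
Share of miR-301a-3p in the tags of the 3 same-seed members (vertical axis, percent) in each library (horizontal axis), with 95% Wilson intervals as bars. The sham libraries lie between 8.02% and 9.38%, TAC mice 2 to 4 between 5.26% and 6.12%, and TAC mouse 1 at 9.40%.

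The arms of the 3 hairpins were counted in different proportions. miR-130a was counted almost only as its 3p arm, with 1534 tags against 12 of the 5p arm over the sham libraries and 1741 against 3 over the TAC libraries. miR-130b was the reverse, with 7 tags of the 3p arm against 93 of the 5p arm in sham and 4 against 84 in TAC, and the 5p arm had more tags in each of the 8 libraries. The share of the 3p arm was 9.19% ± 9.26 in sham mice and 5.56% ± 11.1 in TAC mice (SD, n = 4 each), with p = 0.83 in an exact permutation test. miR-301a gave both arms, with 146 tags of the 3p arm against 83 of the 5p arm in sham and 122 against 81 in TAC, and the 3p share was 64.2% ± 7.02 and 62.1% ± 10.2 (SD, n = 4 each). miR-301a-5p had 14, 23, 29 and 17 tags in sham mice 1 to 4 and 36, 17, 19 and 9 in TAC mice 1 to 4, and its reference-scaled log2 fold change was 0.44 (SE 0.47, adjusted p = 0.466). TAC mouse 1 was highest in both arms of miR-301a among the TAC libraries. For miR-130b the arm with the family seed was thus the rare one among the tags counted, with the uncertainty of its split from miR-130a-3p given above.

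By mean CPM over the 8 libraries, miR-130a-3p ranked 149 among the 697 miRNAs, miR-301a-3p 293, miR-130b-5p 327 and miR-130b-3p 569. In sham the CPM of miR-130a-3p and miR-301a-3p were far apart, those of miR-301a-3p (6.99 to 8.43) and miR-130b-5p (3.02 to 7.42) overlapped, and the same neighbours overlapped in TAC. Tags of different miRNAs can be captured with unequal efficiency, so the order is that of tags counted. The 3p arms together took 88.4 ± 8.4 CPM in sham mice and 69.4 ± 5.01 in TAC mice (SD, n = 4 each), or 129 ± 9.33 reference-scaled CPM in TAC. They made up 0.00776% of all miRNA counts.

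Other miRNAs read nearly the same target letters, since their bases 2 to 8 hold 6 bases of the family seed shifted by 1 place. These are shown to place the family among its neighbours, again with bases 2 to 8 in capitals.
mmu-miR-148a-3p: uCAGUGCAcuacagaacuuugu
mmu-miR-152-3p: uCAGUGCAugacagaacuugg
mmu-miR-19b-3p: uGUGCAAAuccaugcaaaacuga
miR-148a-3p, miR-148b-3p, miR-152-3p and miR-350-5p hold the first 6 bases of the seed, and miR-19a-3p and miR-19b-3p the last 6. The former had 15290 ± 2046 CPM in sham mice and 13610 ± 1713 in TAC mice (SD, n = 4 each), and the latter 237 ± 40.5 and 118 ± 25.7 (SD, n = 4 each). Both groups were counted more often than the family itself. miR-148a-3p had a reference-scaled log2 fold change of 0.76 (SE 0.15, adjusted p = 0.00224), and miR-152-3p had 0.63 (SE 0.14, adjusted p = 0.00536). miR-148b-3p (0.50, adjusted p = 0.0606), miR-350-5p (0.11, adjusted p = 0.705) and miR-19a-3p (-0.12, adjusted p = 0.738) did not pass. miR-19b-3p is itself 1 of the references, which fixes it near 0 (-0.10) by construction. With library totals 3 of these 6 passed with a lower level in TAC, miR-19a-3p at -1.02 (adjusted p = 0.0401), miR-19b-3p at -1.0 (adjusted p = 0.00907) and miR-350-5p at -0.79 (adjusted p = 0.0490), and 0 with a higher one, against 12.7% and 0.488% of all tested miRNAs. With the reference scaling 2 were higher and 0 lower, against 42.7% and 0.488%. Under TMM 0 of these 6 passed (4.63% of all higher, 3.17% lower), with log2 fold changes from -0.70 in miR-19a-3p to 0.16 in miR-148a-3p.

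The pattern most like that of miR-130a-3p over the 8 libraries, by the root mean square difference of log2(CPM + 1) centred on each miRNA's own mean, was that of miR-27a-3p, with a difference of 0.0797. miR-125b-1-3p at 0.0946 and miR-425-5p at 0.115 came next, where the median over 409 other miRNAs was 0.353. For miR-301a-3p the nearest were miR-351-5p (0.108), miR-15a-5p (0.135) and miR-497a-5p (0.143), with a median of 0.445. For miR-130b-5p they were miR-1949 (0.167), miR-127-3p (0.212) and miR-532-3p (0.218), with a median of 0.474. These values describe likeness in the same libraries and depths, and no test was made of them.

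Of the 14 other miRNAs listed for the vessel wall and angiogenesis, all were tested, 9 passed the adjusted threshold with a higher level in TAC after reference scaling and 0 with a lower one, against 42.7% and 0.488% of all tested miRNAs. Under TMM 3 were higher and 1 lower (4.63% and 3.17% of all), and with library totals 0 were higher and 4 lower (0.488% and 12.7% of all). The list holds both endothelial markers. miR-126a-3p is also 1 of the 2 references, so the reference scaling itself holds it near 0, and miR-126a-5p is its other arm. Counts of endothelial markers passing after this scaling are thus partly set by the scaling. The median log2 fold change of the 14 was 0.56 after reference scaling, close to the 0.59 of all tested miRNAs. The most abundant were miR-27b-3p at 1.26 (adjusted p = 5.58e-05), miR-143-3p of smooth muscle at 0.79 (adjusted p = 1.86e-04), and the endothelial miR-126a-3p at 0.10 (adjusted p = 0.650) and miR-126a-5p at -0.12 (adjusted p = 0.475). Of 2 miRNAs that also repress PPAR-gamma, miR-27b-3p kept an adjusted p of 0.0197 under TMM with a log2 fold change of 0.66. miR-27a-3p had 0.58 (SE 0.12, adjusted p = 0.00412) after reference scaling, nearly the value of miR-130a-3p, and -0.012 (adjusted p = 0.965) under TMM. Among the marker lists, 4 of 5 smooth muscle and fibroblast, 1 of 5 leukocyte, 4 of 5 epithelial, 0 of 3 erythroid, 0 of 2 endothelial and 5 of 5 cardiomyocyte miRNAs passed with a higher level after reference scaling, and 0 of any list with a lower one, where 42.7% of all tested miRNAs were higher and 0.488% lower. Under TMM these were 1 cardiomyocyte marker higher and 1 endothelial marker, miR-126a-5p, lower, with 0 in the other lists (4.63% and 3.17% of all). With library totals 1 cardiomyocyte marker passed higher and both endothelial markers lower, with 0 in the other lists (0.488% and 12.7% of all). Summed CPM in sham and TAC ran from 41700 to 49650 and 36700 to 43820 for smooth muscle and fibroblast, 1305 to 2455 and 1051 to 1448 for leukocyte, and 418 to 1503 and 43.8 to 550.0 for erythroid markers. No marker of these lists was at 0 in every library, and their part in the members' values was not tested. The summed epithelial markers reached 1016 CPM in TAC mouse 4, against at most 330.5 in sham, and without this library the log2 fold change of miR-130a-3p was 0.67 and that of miR-301a-3p 0.35, while the median of all tested miRNAs was 0.65.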

How the data were processed

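Small RNA of cardiomyocytes from 4 sham and 4 TAC mice was sequenced, and the authors deposited raw tag counts per mature miRNA, 1 library per mouse. The submitters' processing notes name mm10 and StringTie 1.3.1. Aligner, miRNA reference and treatment of tags with several matches are not given in the sources used here. Equal counts under some names are described above.

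The counts were tested with edgeR 4.0.16 in R 4.3.3 (quasi-likelihood F test, group as the only term, Benjamini-Hochberg adjustment) for the 410 miRNAs whose counts averaged 10 or more. A minimum of 100 left 1 member. Library sizes were miRNA totals, multiplied in TAC by the reference factor. miRNAs were called at a fold change over 1.7 together with an adjusted p under 0.05. Standard errors were taken from the fold change and F. Single values had exact permutation tests over 70 arrangements, on log2(CPM + 0.1) for 4 members on both scales and on percent for shares, with no adjustment. Groups came from the sample titles. The tests were tried on simulated data with as many rises as falls and with unchanged references. Both the reference scaling and TMM hold there by construction, so the trial cannot decide between them. Python 3.11.15 with pandas 2.3.3 made the remaining values. Sequences were matched by name for 593 of 697 miRNAs and for 4 of 4 members.

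Members and lists were chosen with earlier results of these data known. The miRNAs named are the members and their other arms, those with the same or a shifted seed, the 2 references, the 3 nearest in pattern to each tested member, and the most abundant of the vascular list (14) and the PPAR-gamma list (2). Marker lists were cardiomyocyte (5), endothelial (2), smooth muscle and fibroblast (5), erythroid (3), leukocyte (5) and epithelial (5). The labels give both groups numbers 1 to 4. Alternatives were other scalings and filters, DESeq2 1.42.0, a replicate block and each library left out.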

Additional observations from a re-analysis of the deposited data

Results flagged for a closer look

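In TAC mouse 3, miR-130b-3p had 0.631 CPM by library total, from 4 tags, while the other 3 TAC libraries had 0. It was marked as a sample far from the others by Dixon's ratio for 4 samples, but with the others tied at 0 any count at all would have been marked, so the mark says nothing about its size. The same holds for the share of miR-130b-3p in both miR-130b arms, which was 22.2% (95% Wilson interval 9.0% to 45.2%) in this library and 0 in the others. Of the 20 groups of 4 examined these 2 were marked, and the rate of about 1 in 20 by chance does not hold for such ties. Both values rest on the same 4 tags.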

How the results depend on the processing

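The sign of the members' log2 fold changes follows the scaling. In miR-130a-3p it was -0.0064 under TMM, -0.31 with library totals and -0.039 with DESeq2's own size factors, and 0.56 without passing the threshold with 1 reference factor per library. In the same order of the first 3, miR-130b-5p had -0.32, -0.63 and -0.34, miR-301a-3p -0.44, -0.73 and -0.47, and miR-301a-5p -0.17, -0.46 and -0.20. These 4 scalings left 0 members past the adjusted threshold with a higher level, against 1 in the main test, and 0 with a lower level passed in any setting. The count of all miRNAs called higher went from 122 to 7 under TMM, 1 with library totals and 9 with DESeq2's own size factors, and of those called lower from 2 to 7, 36 and 13, and to 1 with 1 reference factor per library or miR-19b-3p alone.

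With each library left out, the log2 fold change ran from 0.50 to 0.70 in miR-130a-3p, 0.16 (without TAC mouse 4) to 0.48 (without sham mouse 2) in miR-130b-5p, -0.040 to 0.35 in miR-301a-3p and -0.14 to 0.76 in miR-301a-5p, the negative values being those without TAC mouse 1. Members past the threshold ran from 0 to 1, miRNAs called higher from 85 to 160 and lower from 1 to 4. The share difference of miR-130a-3p ran from 1.76 to 3.14 percent points, and that of miR-130b-3p from -9.19 to -0.813.

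The paper speaks of pairs of sham and TAC mice. Whether the replicate numbers mark these pairs is not given in the sources used here. Deviations of same-numbered libraries correlated at 0.105, -0.263, 0.221 and -0.144, which cannot decide whether the mice are paired. With the replicate block miR-130a-3p had 0.59 (adjusted p = 0.0303) and no member's call changed. At under 50 tags a library, depth limits miR-301a-3p and both miR-130b arms.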
